A study of Homo sapiens with 6 samples.

Results

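LGR4, LGR5 and a group of genes that are switched on by Wnt signalling and feed back on it were examined in HCT116 cells that lack BRCA2. The named genes were LGR4, LGR5, AXIN2, RNF43, ZNRF3, NKD1, LEF1, TCF7, ASCL2 and SP5. A gene was measured where a probe set carried its symbol and no other, and where several did, the probe set was chosen by its mean over all 6 arrays, the highest being taken. By this rule 7 of the 10 genes were measured, among 13139 genes with 1 symbol on 19458 probe sets, and LGR5, ZNRF3 and TCF7 were not analysed here. Only AXIN2 had a further probe set, of mean 7.05 over the arrays against 8.78 for the one used, and it is described beside it. These means only chose the probe set and are not a result.

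The data compare BRCA2 knockout HCT116 cells with wild-type HCT116 cells, on 3 arrays per genotype. HCT116 is an established human colon carcinoma line, and both genotypes were grown without any drug or ligand named in the labels. The knockout had been derived from the line by targeting one BRCA2 allele after the other through homologous recombination, so that each genotype is 1 line and a difference caused by BRCA2 loss cannot be told apart from any other difference between the lines. The labels call the arrays technical replicates, while the extraction protocol speaks of 3 samples per genotype, and nothing says that these came from separate cultures. The SD, SE and p-values below therefore rest on array-to-array spread, which may be technical.

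Wnt ligands bind Frizzled receptors with LRP co-receptors and stop the destruction complex, built on AXIN and APC, from degrading beta-catenin, which then activates genes together with TCF and LEF proteins. The membrane ubiquitin ligases RNF43 and ZNRF3 remove Frizzled from the cell surface, and R-spondins bound to the receptors LGR4 or LGR5 take these ligases away and so raise sensitivity to Wnt. In the intestinal crypt LGR5 marks stem cells, and AXIN2, RNF43, ZNRF3 and NKD1 are induced by beta-catenin and act against it. HCT116 cells are known to carry an activating mutation of beta-catenin and a truncating lesion of RNF43, which the transcript levels here do not report on.

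The colon epithelial markers covered a wide range of levels. KRT8 lay between 12.94 and 13.11 on the log2 scale in knockout arrays and between 11.98 and 12.80 in wild-type arrays, and EPCAM between 9.75 and 10.31 in knockout and 9.47 and 10.10 in wild type. KRT20, VIL1, CDH17 and CEACAM5, which mark mature colon cells, were at means of 5.95, 5.82, 5.05 and 5.70 in knockout and 5.93, 5.58, 4.44 and 5.72 in wild type. The array medians lay between 7.41 and 7.80 in knockout and between 7.36 and 7.71 in wild type, highest on knockout array 2 and wild-type array 1. BRCA2 itself was not analysed here, so the genotype could not be checked against its own transcript.

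The promoters of LGR4 and SP5 are shown. LGR4 was the measured gene called as different between the genotypes. SP5 has the most matches to the TCF motif among the measured genes with a promoter window. The motif was searched as CTTTGAA, as CTTTGAT, as CTTTGTA and as CTTTGTT on either strand, in the 250 bases before each start in the RefSeq promoter table (build GRCh38.p14), and matches are in capitals. The LGR4 window is chr11:27472791-27473040, minus strand, and the SP5 window is chr2:170715087-170715336, plus strand, each printed 5′ to 3′ on the gene's strand.
LGR4: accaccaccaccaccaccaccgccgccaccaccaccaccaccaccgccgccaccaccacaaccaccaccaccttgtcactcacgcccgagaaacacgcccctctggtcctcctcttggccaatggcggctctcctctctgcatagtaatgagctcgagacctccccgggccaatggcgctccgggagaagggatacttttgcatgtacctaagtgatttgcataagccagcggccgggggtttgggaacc
SP5: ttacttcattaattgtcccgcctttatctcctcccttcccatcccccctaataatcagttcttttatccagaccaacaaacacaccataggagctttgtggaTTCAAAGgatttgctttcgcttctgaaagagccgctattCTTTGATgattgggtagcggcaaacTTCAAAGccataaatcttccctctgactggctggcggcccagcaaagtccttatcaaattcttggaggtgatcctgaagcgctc
The SP5 window held 3 matches, beginning 148, 109 and 84 bases before the start, and the LGR4 window held 0. Windows were matched for 5 of the named genes. The 2 windows of RNF43 and the 1 window of LEF1 also held 0 matches, and of the 2 windows of TCF7, which was not measured, 1 held 1 match. Among all 35116 windows of the table, 12% held at least 1 match and 0.122% held 3 or more. A match describes the letters in the window and is not a shown binding site, and a window without one says nothing of TCF binding elsewhere.

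LGR4, the R-spondin receptor, was the 1 of the 7 measured genes called at a limma adjusted p under 0.05. The AXIN2 probe set that was not used also lay apart between the genotypes and missed the call, as described below. LGR4 was higher in the knockout. Its log2 value was 9.22, 10.07 and 9.57 on knockout arrays 1, 2 and 3, against 7.32, 6.84 and 6.52 on wild-type arrays 1, 2 and 3. Every knockout array lay above every wild-type array, and the lowest knockout value was 9.22 where the highest wild-type value was 7.32. The means were 9.62 ± 0.43 in knockout and 6.89 ± 0.41 in wild type (SD, n = 3 arrays each). The log2 difference, knockout minus wild type, was 2.73 ± 0.34 (SE), with a 95% interval of 1.92 to 3.53 and an adjusted p of 0.026 in limma, adjusted over all probe sets. This is 6.62-fold, with an interval of 3.79-fold to 11.6-fold. In RNA of whole cultures, more cells with the transcript and more transcript per cell cannot be told apart.

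Across all probe sets 0.570% were called in limma at an adjusted p under 0.05, and 0.416% were called as higher in the knockout. For 46 of the 13139 genes the positive difference was larger than that of LGR4. The size of the LGR4 difference held when arrays were left out, while its call did not. Without knockout array 1, 2 or 3 the difference was 2.93, 2.50 and 2.75, with limma adjusted p of 0.0863, 0.062 and 0.129. Without wild-type array 1, 2 or 3 it was 2.94, 2.70 and 2.54, with adjusted p of 0.0594, 0.115 and 0.162. The call was also lost without both arrays of highest median, knockout array 2 and wild-type array 1 (2.72, adjusted p = 0.113). The series design names a single-factor comparison of the genotypes. In a single-factor test without moderation the LGR4 call was lost as well (adjusted p = 0.0949).

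**Figure D1:**
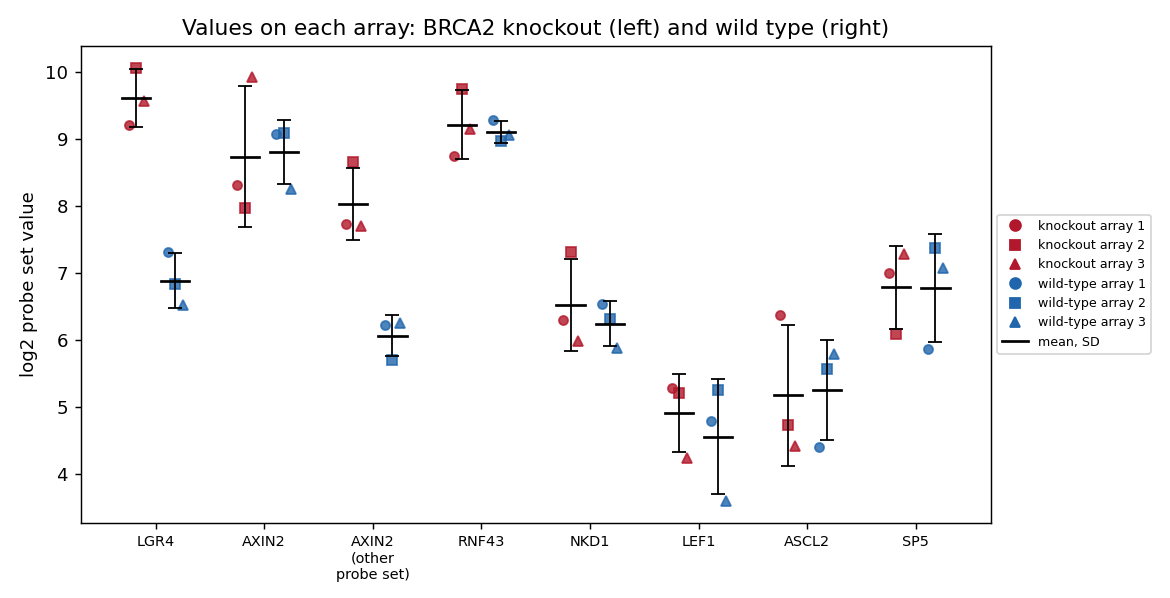
Log2 probe set values of the measured genes on each array, with knockout arrays (red) left of wild-type arrays (blue) for each gene, the array number given by the symbol, and bars at the mean with whiskers of 1 SD (n = 3). LGR4 lies between 9.22 and 10.07 on knockout arrays and between 6.52 and 7.32 on wild-type arrays, and the genotypes are also apart for the other AXIN2 probe set, whereas they overlap for the remaining probe sets.

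RNF43, the ligase that removes Frizzled receptors and that LGR4 counteracts when bound to R-spondin, showed no difference beyond the spread between arrays. Its values were 8.75, 9.75 and 9.15 on knockout arrays 1, 2 and 3 and 9.29, 8.97 and 9.07 on wild-type arrays 1, 2 and 3. Knockout array 1 lay below the wild-type range, knockout array 2 above it and knockout array 3 within it. The difference was 0.11 ± 0.32 (SE, limma adjusted p = 0.913), and its 95% interval of -0.65 to 0.87 leaves room for changes from 0.636-fold to 1.83-fold.

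AXIN2, which encodes a scaffold of the destruction complex and is a widely used readout of beta-catenin activity, gave different answers on its probe sets. The probe set used had 8.32, 7.97 and 9.93 on knockout arrays 1, 2 and 3, against 9.08, 9.10 and 8.26 on wild-type arrays 1, 2 and 3. Knockout array 3 was the highest of all and the other knockout arrays lay near or below the lowest wild-type array, so that the genotypes overlapped. The difference was -0.08 ± 0.55 (SE, limma adjusted p = 0.965), with a 95% interval of -1.37 to 1.22, and it was -0.67 without knockout array 3 (adjusted p = 0.765) and 0.31 without knockout array 2 (adjusted p = 0.769). The sign also turned without knockout array 1 (0.13), wild-type array 1 (0.06) or wild-type array 2 (0.07), while without wild-type array 3 the difference was -0.35.

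The other AXIN2 probe set, of lower mean, had 7.73, 8.66 and 7.71 on knockout arrays 1, 2 and 3, against 6.23, 5.71 and 6.26 on wild-type arrays 1, 2 and 3. Here every knockout array lay above every wild-type array. The difference was 1.97 ± 0.35 (SE, 95% interval 1.14 to 2.80), 3.91-fold, and missed the call (limma adjusted p = 0.0829). It passed in 5 of 16 alternatives, namely median centring (adjusted p = 0.0333), quantile normalization (0.0419), array weights (0.0235), a variance trend (0.0103) and a filter on the dimmest 30% (0.0253). Over the 16 alternatives the difference lay between 1.66 and 2.13 and the adjusted p between 0.0103 and 0.518. With both probe sets averaged the AXIN2 difference was 0.95 (limma adjusted p = 0.273). The exons that each probe set covers were not analysed here.

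NKD1, which binds Dishevelled and dampens the Wnt signal, overlapped between the genotypes. It had 6.30, 7.31 and 5.99 on knockout arrays 1, 2 and 3, and 6.54, 6.31 and 5.89 on wild-type arrays 1, 2 and 3. Only knockout array 2 lay above all wild-type arrays. The difference was 0.28 ± 0.40 (SE, limma adjusted p = 0.81, 95% interval -0.66 to 1.23), and without knockout array 2 it was -0.10 (adjusted p = 0.874).

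LEF1, a DNA-binding partner of beta-catenin, had low values in both genotypes. Its values were 5.28, 5.22 and 4.24 on knockout arrays 1, 2 and 3, and 4.80, 5.26 and 3.60 on wild-type arrays 1, 2 and 3. Array 3 was the lowest in each genotype, and the ranges overlapped. The difference was 0.36 ± 0.50 (SE, limma adjusted p = 0.81, 95% interval -0.83 to 1.54), and it was -0.12 without wild-type array 3 (adjusted p = 0.957). The lowest 10% of values ended between 4.69 and 4.86 on knockout arrays and between 4.74 and 4.89 on wild-type arrays, so that LEF1 had little signal over background and a change in it would be poorly seen.

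ASCL2, a basic helix-loop-helix factor that controls intestinal stem cell fate in the mouse, also had low and scattered values. It was at 6.37, 4.74 and 4.42 on knockout arrays 1, 2 and 3, and at 4.40, 5.57 and 5.80 on wild-type arrays 1, 2 and 3. Knockout array 1 was the highest and wild-type array 1 the lowest, with the other arrays between them. The difference was -0.08 ± 0.60 (SE, limma adjusted p = 0.967, 95% interval -1.50 to 1.34), and its sign turned without knockout array 2 (0.14), knockout array 3 (0.30), wild-type array 2 (0.08) or wild-type array 3 (0.19).

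SP5, a zinc finger factor induced by Wnt signalling, whose promoter holds the 3 TCF motif matches shown above, had the smallest difference of the measured genes. It was at 7.00, 6.09 and 7.29 on knockout arrays 1, 2 and 3, and at 5.87, 7.38 and 7.08 on wild-type arrays 1, 2 and 3. The lowest array of each genotype was the one of highest median, knockout array 2 and wild-type array 1, and the remaining arrays lay between 7.00 and 7.38. The difference was 0.02 ± 0.49 (SE, limma adjusted p = 0.99, 95% interval -1.15 to 1.18). The spread leaves room for changes from 0.452-fold to 2.27-fold, and the sign of the difference turned in 6 of 17 alternatives, among them with each array centred on its median (-0.01) and without both arrays of highest median (-0.08).

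**Figure D2:**
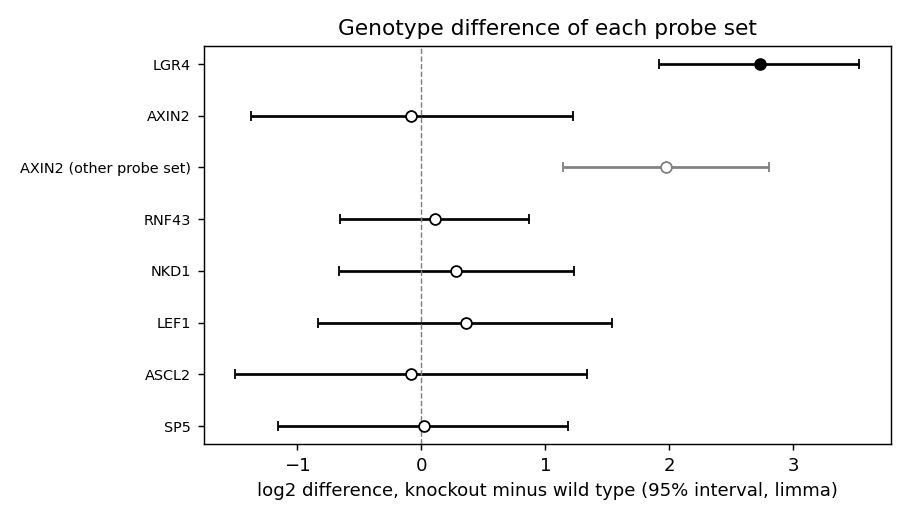
Log2 difference of each probe set, knockout minus wild type, with its 95% interval from limma (n = 3 arrays per genotype), where the filled point passed an adjusted p of 0.05 and the grey one is the AXIN2 probe set not used. The LGR4 interval, 1.92 to 3.53, lies above those of the probe sets used for the other genes, of which LEF1 reaches highest, at 1.54, and overlaps that of the other AXIN2 probe set, 1.14 to 2.80.

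Among the 7 measured genes the knockout mean was above the wild-type mean in 5 and below it in 2, SP5 being among the higher ones as deposited and not after median centring, with a median difference of 0.11, against 54.7% higher and a median of 0.07 over all 13139 genes. Knockout and wild-type arrays were fully apart for 1 of the 7, LGR4, as they were for 19.7% of all probe sets and 2784 of the 13139 genes. Without LGR4 the remaining 6 genes had a median difference of 0.06. On the probe sets used, 0 of the 6 had an unadjusted p under 0.05 in limma, against 12.2% of all probe sets. Of the 13139 genes 1778 had one. For AXIN2 this depended on the probe set, as the unadjusted limma p was 7.84e-04 on the other and 0.0157 with both averaged. On the log2 scale these 6 genes, on the probe sets used, had means of 7.00, 6.85 and 6.84 on knockout arrays 1, 2 and 3. On wild-type arrays 1, 2 and 3 the means were 6.66, 7.10 and 6.62. Wild-type array 2 was the highest and wild-type arrays 1 and 3 the lowest of these means, with the knockout arrays between them.

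The genes around LGR4 on chromosome 11 were not all higher with it. RefSeq (assembly GRCh38.p14, used for the order of genes) places LIN7C, BDNF and KIF18A after LGR4 and SLC5A12, MUC15 and ANO3 before it, as the nearest measured genes. LIN7C, a scaffold gene next to LGR4, was at 8.65, 9.24 and 8.79 on knockout arrays 1, 2 and 3 and at 9.48, 8.05 and 8.65 on wild-type arrays 1, 2 and 3, which overlapped (difference 0.17 ± 0.41, limma adjusted p = 0.895).

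BDNF, the neurotrophin gene beyond LIN7C, was at 10.13, 10.41 and 10.21 on knockout arrays 1, 2 and 3, against 9.02, 8.52 and 8.22 on wild-type arrays 1, 2 and 3. The genotypes did not overlap, and the difference of 1.67 ± 0.29 missed the call (limma adjusted p = 0.079, and under 0.05 in 5 of 17 alternatives, between 0.00205 and 0.518 over them). The other neighbours overlapped between the genotypes, with differences between -0.74 in SLC5A12 and 0.42 in ANO3. ASCL2 lies on the same chromosome as LGR4, and AXIN2 and RNF43 share chromosome 17.

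The genes whose values followed LGR4 most closely over the 6 arrays, by Pearson correlation among 13138 other genes, were FUOM, IGF1R and SGPP2, with r of 0.998, 0.998 and 0.997. Points from 2 genotypes that lie apart make such a correlation a description only. Choosing genes by it also favours genes that differ between the genotypes, so their differences and p-values below are descriptions as well. IGF1R, the insulin-like growth factor receptor gene, had 9.19, 9.71 and 9.40 on knockout arrays 1, 2 and 3, against 8.38, 8.14 and 7.88 on wild-type arrays 1, 2 and 3. As in LGR4, knockout array 2 was the highest and wild-type array 3 the lowest. The difference was 1.30 ± 0.28 in IGF1R, 0.87 ± 0.24 in the fucose mutarotase gene FUOM and 2.11 ± 0.33 in the lipid phosphatase gene SGPP2 (SE, limma adjusted p = 0.13, 0.221 and 0.054). An adjusted p under 0.05 was reached by IGF1R in 2 of 17 alternatives (0.0224 to 0.633 over them), by FUOM in 1 of 16 (0.0474 to 0.733) and by SGPP2 in 5 of 16 (0.00881 to 0.43).

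Other Wnt pathway genes were taken from 6 lists by role, of which 110 genes were measured. The knockout mean was higher for 76 of them and lower for 34, and the median difference was 0.28, against 0.07 over all genes. Over all genes with 1 symbol 54.7% were higher. The lists of cell markers described below also had medians above that of all genes, at 0.35, 0.51 and 0.36. A single gene, BMP4, was called as higher and 0 as lower, and at an unadjusted p under 0.05 in limma 14 were higher and 5 lower, or 17.3% of the lists against 12.2% of all probe sets. Knockout and wild-type arrays were fully apart for 23 higher and 5 lower genes, or 25.5% against 19.7% of all probe sets. Of the 13139 genes with 1 symbol, 1778 had an unadjusted limma p under 0.05 and 2784 were fully apart. The lists hold such genes, so these counts are a closer comparison than the shares of probe sets. Among all probe sets 0.570% were called in limma. The lists were chosen with earlier results of these data known, so a higher share in them is a description only.

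Wnt ligands, R-spondins and the genes for their secretion had 15 of 21 measured members higher and 6 lower, with a median of 0.38. In limma 0 were called. At an unadjusted p under 0.05 there were 1 higher and 2 lower, or 14.3% against 12.2% of all probe sets. RSPO3, which encodes an R-spondin that binds LGR4, had the largest difference, at 2.90, 3.87 and 1.57 on knockout arrays 1, 2 and 3, against 4.78, 4.12 and 4.43 on wild-type arrays 1, 2 and 3. The knockout arrays were all below the wild-type arrays, at values near the bottom of the scale. The difference of -1.66 ± 0.57 did not pass (limma adjusted p = 0.304), and it was -0.44 with values under 4 set to 4 (adjusted p over the alternatives 0.054 to 0.696). It was -1.05 without knockout array 3 and -2.20 without knockout array 2. RSPO1, another R-spondin gene, overlapped between the genotypes (6.36 ± 0.71 in knockout and 6.82 ± 0.67 in wild type, SD, n = 3).

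Receptors, co-receptors and Dishevelled genes had 13 of 21 members higher and 8 lower, with a median of 0.26. Here too 0 were called in limma. An unadjusted p under 0.05 was reached by 3, all higher, or 14.3% against 12.2% of all probe sets. The largest difference was in ROR1, a receptor tyrosine kinase for Wnt ligands that act apart from beta-catenin, with 8.85, 9.50 and 8.79 on knockout arrays 1, 2 and 3, against 7.63, 7.49 and 7.46 on wild-type arrays 1, 2 and 3. The genotypes did not overlap, and the difference was 1.52 ± 0.29 (limma adjusted p = 0.0967, and under 0.05 in 5 of 17 alternatives, between 0.0159 and 0.551 over them). LGR6, the relative of LGR4 and LGR5 that also binds R-spondins, was at 5.95 ± 0.56 in knockout and 5.69 ± 0.49 in wild type, and its arrays overlapped (difference 0.26 ± 0.39, adjusted p = 0.822).

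Secreted antagonists had 7 of 9 members higher and 2 lower, with a median of 0.47. Of these 0 were called in limma. An unadjusted p under 0.05 was reached by 1 higher and 1 lower gene, or 22.2% against 12.2% of all probe sets. FRZB, a Frizzled-related antagonist, had the largest difference, -1.70 ± 0.60 (limma adjusted p = 0.318, and -1.10 with values under 4 set to 4), with 2.72, 5.16 and 3.48 on knockout arrays 1, 2 and 3, against 5.77, 5.46 and 5.23 on wild-type arrays 1, 2 and 3. Knockout array 2 came close to the lowest wild-type array, and the difference was -2.39 without it (adjusted p = 0.0735) and -1.17 without knockout array 1 (adjusted p = 0.513). DKK1, an LRP antagonist and itself a target of beta-catenin, had 11.80, 11.90 and 12.04 on knockout arrays 1, 2 and 3, against 10.56, 10.83 and 10.94 on wild-type arrays 1, 2 and 3, without overlap and with little spread. Its difference of 1.14 ± 0.25, or 2.2-fold, did not pass (limma adjusted p = 0.136, and under 0.05 in 2 of 17 alternatives, between 9.12e-04 and 0.649 over them).

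The destruction complex and its regulators had 10 of 16 members higher and 6 lower, with a median of 0.10. In limma 0 passed. An unadjusted p under 0.05 was reached by 2, both higher, or 12.5% against 12.2% of all probe sets. AMER1, which recruits APC to the membrane, had the largest difference, 0.98 ± 0.26 (limma adjusted p = 0.208), with 7.73 ± 0.28 in knockout and 6.75 ± 0.10 in wild type. CTNNB1, the beta-catenin gene itself, was at 10.03 ± 0.57 in knockout and 9.89 ± 0.37 in wild type (SD, n = 3). Its arrays overlapped, and the difference was 0.14 ± 0.37 (adjusted p = 0.902).

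TCF partners and co-repressors had 11 of 17 members higher and 6 lower, with a median of 0.16. In limma 0 were called. An unadjusted p under 0.05 was reached by 2 higher genes and 1 lower one, or 17.6% against 12.2% of all probe sets. The co-repressor gene TLE1 had the largest difference, 1.37 ± 0.29 (limma adjusted p = 0.127, and under 0.05 in 2 of 17 alternatives, between 0.0193 and 0.622 over them), with 8.61 ± 0.14 in knockout and 7.24 ± 0.38 in wild type. TCF7L2, the main TCF gene of intestinal epithelium, was at 9.87, 10.33 and 9.42 on knockout arrays 1, 2 and 3, against 10.67, 10.67 and 10.58 on wild-type arrays 1, 2 and 3. All knockout arrays lay below the tight wild-type range, and the difference of -0.77 ± 0.30 did not pass (limma adjusted p = 0.373).

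Among other Wnt targets and crypt stem cell genes 20 of 26 members were higher and 6 lower, with a median of 0.39. At an unadjusted p under 0.05 in limma 5 were higher and 1 lower, or 23.1% against 12.2% of all probe sets. BMP4, which encodes a bone morphogenetic protein and is induced by beta-catenin in colon cancer cells, was the 1 called, and it rose. It had 11.01, 11.43 and 11.45 on knockout arrays 1, 2 and 3, against 8.62, 8.81 and 8.78 on wild-type arrays 1, 2 and 3. The difference of 2.56 ± 0.26 (limma adjusted p = 0.0126) stands beside 2.73 for LGR4. Its call was lost without knockout array 3 (2.48, adjusted p = 0.0818) or without wild-type array 1, 2 or 3 (2.50, 2.60 and 2.58, adjusted p = 0.0587, 0.0675 and 0.102), and without both arrays of highest median (2.43, adjusted p = 0.113).

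In this list 10 of the 26 genes, 9 of them higher in the knockout, or 38.5%, had genotypes fully apart. Over all probe sets 12.0% lay without overlap as higher and 7.70% as lower, and 2784 of the 13139 genes were fully apart. This list too was chosen with earlier results of these data known, so its share is a description only. Over all 12 colon epithelial markers 11 were higher, with a median of 0.35, and 4 did not overlap. Of 4 lymphocyte and myeloid markers 3 were higher, with a median of 0.51, and of 7 fibroblast and endothelial markers 6 were higher, with a median of 0.36, and 1 gene of each list did not overlap. In limma 0 of the markers of these 3 lists were called. At an unadjusted p under 0.05 there were 1, 0 and 1, all higher, or 8.33%, 0% and 14.3% against 12.2% of all probe sets. Mean levels per array were 5.97 to 6.67 in knockout and 5.72 to 6.69 in wild type for the lymphocyte and myeloid markers, and 6.22 to 7.16 in knockout and 5.94 to 6.83 in wild type for the fibroblast and endothelial ones. Their part in the results above was not tested.

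**Figure D3:**
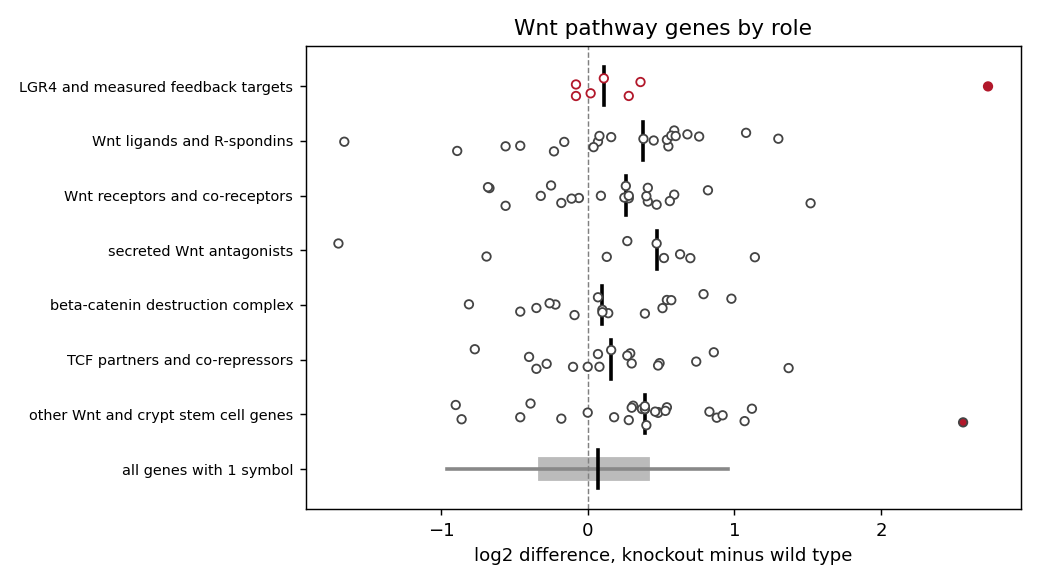
Log2 difference, knockout minus wild type, of each measured gene (points, filled where the adjusted p was under 0.05) by role, with the list's median as a black bar, and for all 13139 genes the median, the middle range (box, 25th to 75th percentile) and a line covering the 5th to 95th percentile. LGR4 (2.73) and BMP4 (2.56) are the filled points, and the list medians lie between 0.10 and 0.47.

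**Figure D4:**
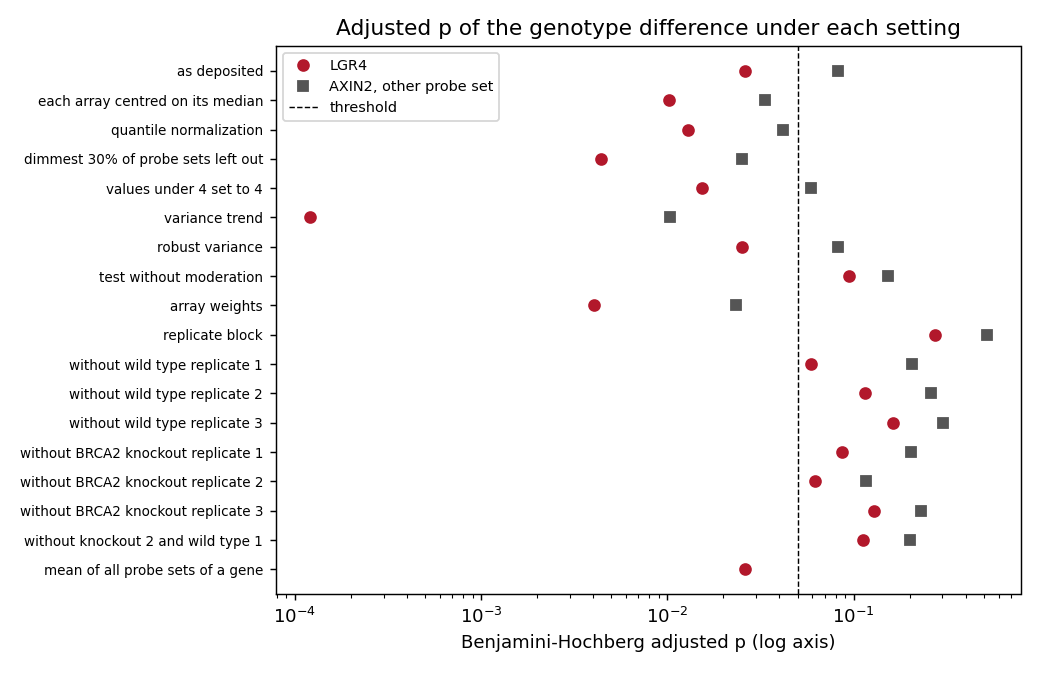
Benjamini-Hochberg adjusted p, on a log axis, of the genotype difference of LGR4 (circles) and of the other AXIN2 probe set (squares) as deposited and under each alternative, with the threshold of 0.05 as a dashed line. LGR4 passes as deposited and in 8 of 17 alternatives and misses the threshold in each setting that leaves out an array.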

How the data were processed

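The 6 arrays, 3 per genotype, were whole-transcript arrays of total RNA from HCT116 cells. The authors deposited 1 log2 value per probe set and array. Per the submitters' processing notes, RMA and R 2.11.1 were used with the build hg18, and the steps of RMA that were run are not given in these sources. The values range as log2 values do. Their distributions differ between arrays, and whether quantile normalization was run at an earlier step is not known. Of 19458 probe sets, the platform annotation gave 1 gene symbol to 13301, several to 2044 and none to 4113, and gene identifiers served to update symbols. All values entered limma 3.58.1 (lmFit and eBayes, in R 4.3.3) unfiltered, with genotype alone in the model. Benjamini-Hochberg adjustment ran across the whole array, and an adjusted p under 0.05 counted as a call. With 3 arrays per genotype, precision is limited by their number. The fit was also run on simulated data with independent noise on each array, and the outcome is not reported here.

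The genes, lists and alternatives were chosen with earlier results of these data known. All measured genes of the group were named, with the called or largest-difference gene of each list and the 3 genes most correlated with the measured gene of smallest p. LGR6, RSPO1, DKK1, CTNNB1, TCF7L2, the neighbours of LGR4 and the cell markers were named after their values were seen. The alternatives changed the scaling (median centring or quantile), low values (a floor of 4, or the dimmest 30% removed), the variance (a trend, robust, unmoderated or array weights), the replicate block, the arrays included and the way a gene's probe sets were joined. No column of values was left out.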

Additional observations from a re-analysis of the deposited data

How the results depend on the processing

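The LGR4 difference lay between 2.50 and 2.94 in 17 alternatives and was called in 8 of them, with adjusted p between 1.20e-04 and 0.273. The number of measured genes called, 1 as deposited, was 0 in the test without moderation, with the replicate block, without both arrays of highest median (knockout 2 and wild type 1), and with any 1 array left out (lowest 0, highest 0). Fewer arrays in general make a call harder to reach, and whether this accounts for the lost calls was not tested. Of all probe sets, 111 were called as deposited, 175 after median centring, 174 after quantile normalization, 184 without the dimmest 30%, 169 with the floor of 4, 396 with a variance trend, 778 with array weights, 3 with the replicate block, 7 without both arrays of highest median and 24 to 63 with any 1 array left out.

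No pairing of the arrays by replicate number was visible, though the correlations below cannot exclude one. Deviations of same-numbered arrays correlated at -0.24, -0.43 and 0.06 for numbers 1, 2 and 3, and the highest correlation, 0.49, was between knockout array 2 and wild-type array 1. The replicate block gave adjusted p of 0.273 for LGR4 and 0.21 for BMP4.

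The median difference of the measured genes, 0.11 as deposited, lay between 0.11 and 0.32 with any 1 array left out. The median was lower, at 0.09 after median centring, 0.04 after quantile normalization and 0.04 without both arrays of highest median. With a gene's probe sets averaged it was 0.28, and 2 genes, LGR4 and AXIN2, did not overlap between the genotypes. Signs turned in genes that were called in no alternative. AXIN2 was at 0.58 with array weights, 0.45 without both arrays of highest median, 0.95 with its probe sets averaged and -0.67 to 0.31 with any 1 array left out. SP5 was at -0.01 after median centring, -0.06 with array weights, -0.08 without both arrays of highest median and -0.44 to 0.37 with 1 array left out. Without both of those arrays RNF43 was at -0.07 and RSPO1 at 0.02, and RSPO1 was at 0.26 with array weights. With 1 array left out the range was -0.16 to 0.34 for RNF43, -0.10 to 0.56 for NKD1, -0.12 to 0.71 for LEF1, -0.68 to 0.30 for ASCL2, -0.05 to 0.53 for LGR6, -0.15 to 0.42 for CTNNB1 and -0.17 to 0.54 for LIN7C. The cause was not tested. LEF1 and ASCL2 were absent from the fit without the dimmest 30% of probe sets.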
